A study of Mus musculus with 22 samples.

Results

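The comparison set synovial fibroblasts of Tg197 mice against those of wild-type (WT) mice at 8 weeks, the age that the series design calls established disease. Its table held 2923 regions with a difference in H3K4me3, out of 26201 regions in the 4 tables of the series, and all 2923 were used, across 1811 gene names and 7 feature classes. The Tg197 group had 3 ChIP-seq libraries and the untreated WT group had 3. Both came from cultured cells at passage 4 to 5 on a CBA x C57BL/6J background. The other tables compared Tg197 with WT at 3 weeks (13603 regions) and at 11 weeks (6593 regions), and TNF-treated with untreated WT cells of 8 weeks (3082 regions). Tg197 mice carry a human TNF transgene and develop a TNF-driven arthritis. The labels used here do not state sex, the number of animals behind a library or whether a library was a pool. The spread between libraries may therefore be technical.

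Synovial fibroblasts line the joint, build its matrix and respond to TNF through NF-kB, a transcription factor that switches on its own inhibitors along with inflammatory genes. H3K4me3 is a histone mark laid down around the starts of active genes. It usually flanks the transcription start site (TSS) and reaches further into the gene body at strongly used promoters. In arthritis these cells are known for making cytokines and matrix-degrading enzymes and for a changed cytoskeleton.

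The values below are the authors' normalized read counts per region. Letters a, b and c name the libraries of a group in the order in which the table lists their values. Per the authors' deposited table, 590 regions were higher in Tg197 (20.2% of those listed) and 2257 were lower (77.2%), at an adjusted p under 0.05. Those words are used here for that call. All 3 Tg197 values lay above all 3 WT values in 471 of the 590, and below them in 1344 of the 2257. Over all listed regions the groups were apart in this way in 16.9% (higher), 46.3% (lower) and 63.2% (either). A limma fit over the 6 libraries placed 0 regions past an adjusted p of 0.05, 1876 past an unadjusted p of 0.05, and gave 0.0725 as its smallest adjusted p; limma-voom on the recovered reads also gave 0, with 1216 at an unadjusted p under 0.05. Leaving out WT library c gave 2563 regions, of which 328 rose and 2235 fell. An exact permutation test of a single region cannot go below p = 0.10 with 3 libraries against 3. Recovered reads in the listed regions ran from 390496 to 849692 per library, and depth relative to the authors' scaling was 1.87, 0.74 and 1.26 in Tg197 and 0.68, 0.64 and 1.39 in WT.

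Higher regions were mostly promoters and lower regions mostly lay elsewhere. Of the 590 higher regions, 520 (88.1%) were in the promoter classes, which reach 250 bp, 1 kb or 3 kb from a TSS. Of the 2257 lower regions, 607 (26.9%) were promoters, 875 lay in gene bodies and 705 between genes. Among called promoter regions 46.1% were higher (exact Clopper-Pearson 95% interval 43.2 to 49.1%), against 4.1% (3.2 to 5.1%) in the other classes. The share of higher calls declined across the classes, at 62.9% within 250 bp, 52.0% in the 1 kb class, 37.5% in the 3 kb class and 4.7% in gene bodies. These intervals cover counting error only.

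**Figure D1:**
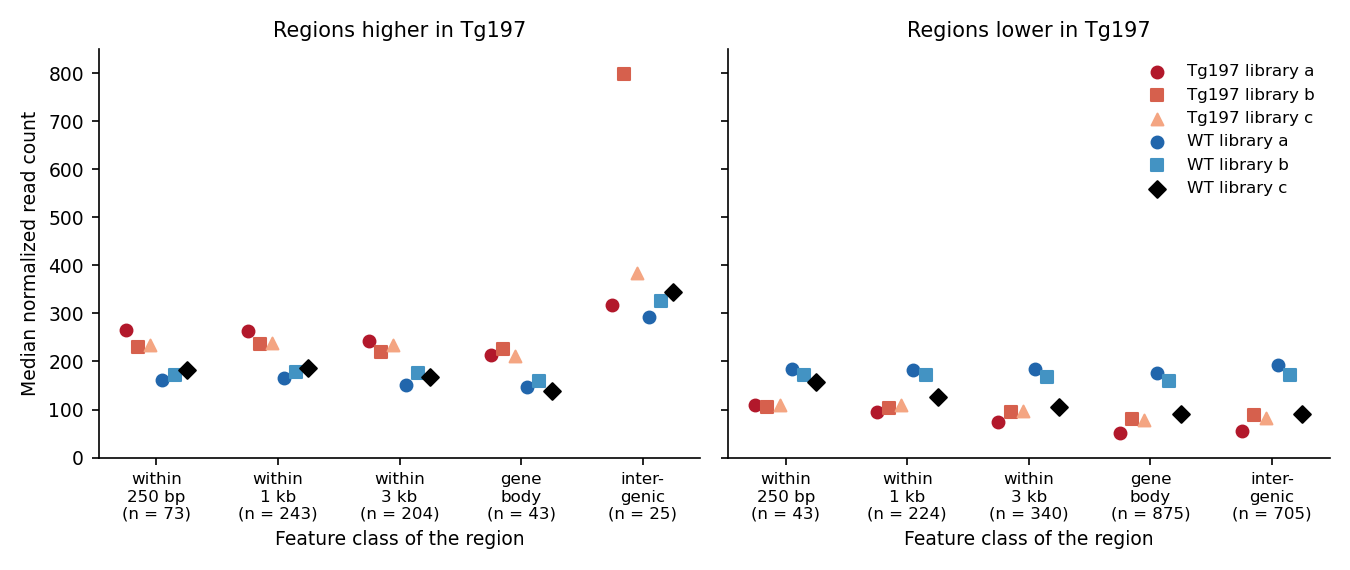
Median normalized read count over the regions of 5 of the 7 feature classes (x axis, number of regions in brackets) in each of the 6 libraries, for regions higher (left) and lower (right) in Tg197; each point is 1 library. Among lower regions WT library c (black diamonds) moves from 158 within 250 bp to 90.4 in gene bodies, while WT libraries a and b stay between 159 and 193 in the 5 classes drawn.

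Promoter regions higher in Tg197 sat downstream of the start rather than on it. Their midpoints had a median distance of 845.5 bp downstream of the TSS, 459 of 520 (88.3%) lay downstream, and 384 (73.8%) fell between 250 and 2000 bp downstream. Lower promoter regions were spread over both flanks, with 350 of 607 (57.7%) downstream and 225 (37.1%) in the same window. Within 250 bp of the TSS there were 73 higher and 43 lower regions. From 1000 to 3000 bp upstream there were 2 higher and 97 lower regions.

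**Figure D2:**
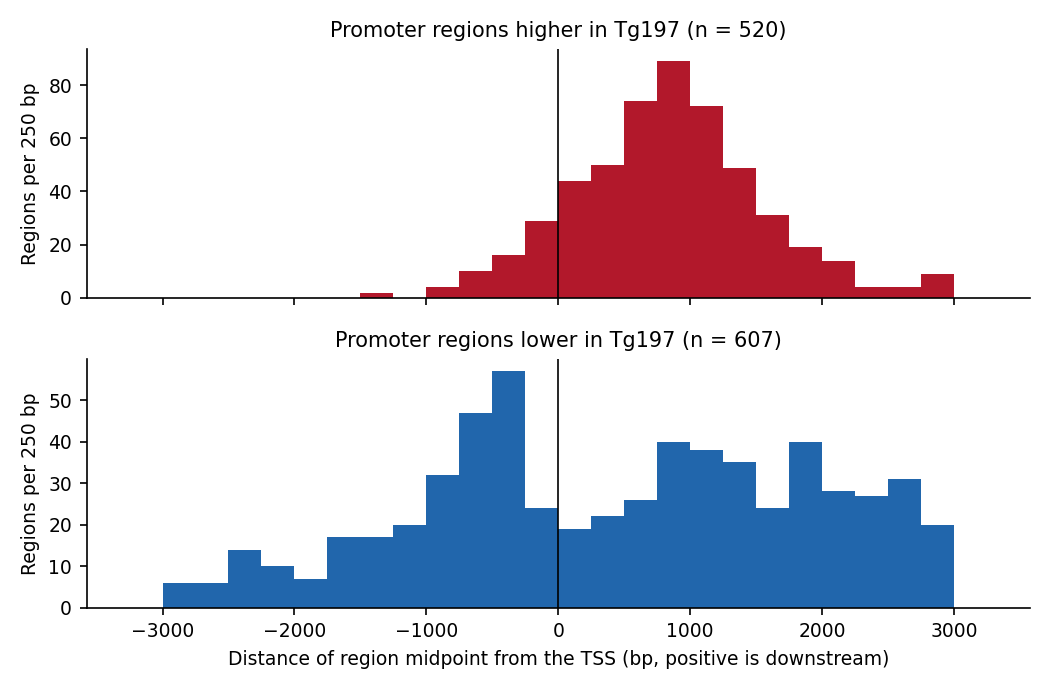
Number of promoter regions per 250 bp (y axis) by distance of the region midpoint from the TSS in bp (x axis, positive is downstream), for the 520 higher (top) and 607 lower (bottom) regions. Higher regions form 1 peak downstream of the TSS, around the median of 845.5 bp, and lower regions lie on both sides with a dip at the TSS.

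The third WT value differed from the other two mainly in lower regions. Median counts over the 2257 lower regions were 59.8, 86.3 and 85.5 in the Tg197 libraries and 184, 167 and 95.4 in WT libraries a, b and c. WT library c thus sat near the Tg197 level, and was the lowest WT value in 2135 of the 2257. On a scale where the Tg197 mean is 0 and the mean of WT libraries a and b is 1, its median place was 0.19. The median log2 ratio of Tg197 to WT libraries a and b was -1.30 in these regions, and that of Tg197 to WT library c was -0.36. WT library c lay below the Tg197 mean in 356 of them, and in 897 the groups overlapped only through it.

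In higher regions the third WT value kept to the other WT values. Medians over the 590 regions were 253, 231 and 238 in Tg197 and 159, 177 and 178 in WT, so all 3 WT medians were below all 3 Tg197 medians. WT library c had a median place of 0.88 there, and lay nearer to the other WT values than to Tg197 in 511 of 590 regions. The log2 ratio was 0.54 against WT libraries a and b and 0.46 against WT library c. Depth relative to the scaling was 1.39 in WT library c and 1.87 and 1.26 in Tg197 libraries a and c, against 0.68 and 0.64 in WT libraries a and b. Tg197 library b stood at 0.74, with a median of 86.3 in lower regions. The part of depth in the result was not tested.

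**Figure D3:**
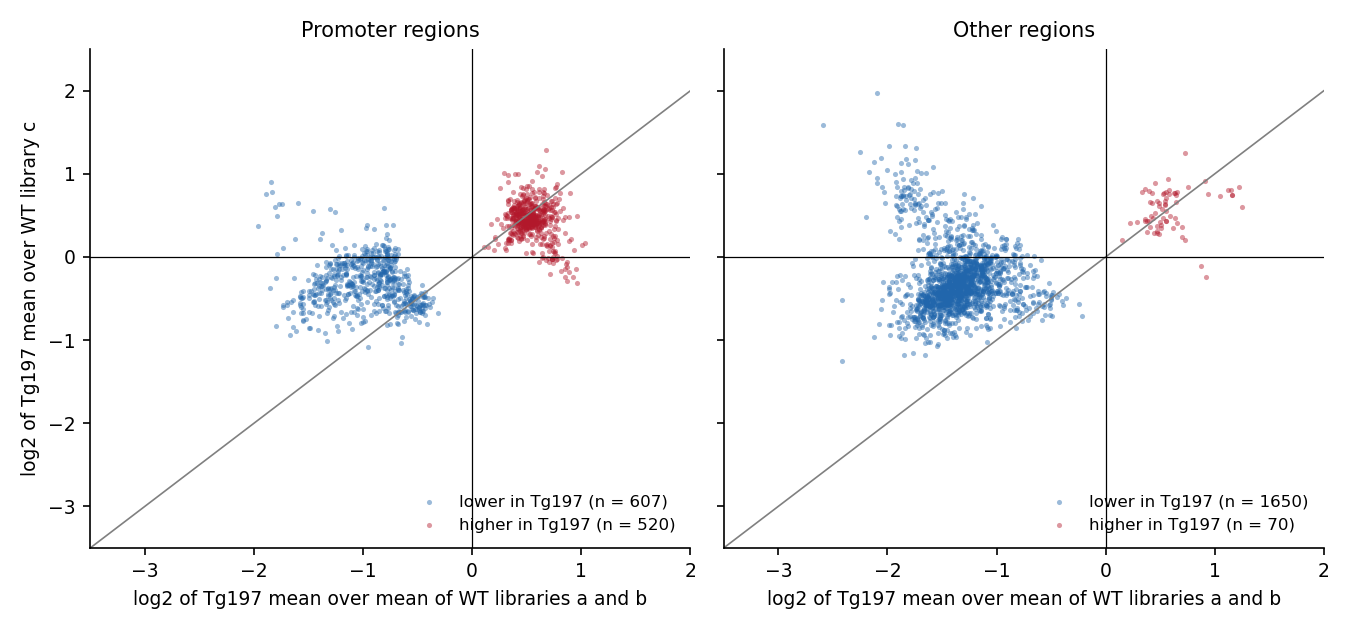
log2 of the Tg197 mean over WT library c (y axis) against log2 of the Tg197 mean over the mean of WT libraries a and b (x axis), 1 point per called region, for promoter classes (left) and other classes (right); the diagonal marks equal ratios. Higher regions (red) gather around the diagonal near 0.5 on both axes, and most lower regions (blue) lie above it, closer to 0 against WT library c.

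In 264 of the lower regions WT library c stood at least midway from Tg197 to the other WT values. Promoters made up 158 (59.8%) of these 264 and 449 (22.5%) of the other 1993. Median counts over the 264 were 101, 112 and 122 in Tg197 and 186, 169.7 and 167 in WT. The set was defined by WT library c, so its WT medians are a description. The promoters of Sp7, Sfrp1, Id1, Runx2, Igfbp4 and Gdf15 belong to it.

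H3K4me3 was higher in Tg197 fibroblasts at the promoters of 4 inhibitors of NF-kB. Of 35 genes of NF-kB feedback and signalling, 4 had a listed promoter region and all 4 were higher, Nfkbia, Nfkbie, Tnfaip3 and Tnip1 (44.4% of all listed promoter regions were higher). Their median log2 change was 0.73, against -0.47 over all 1170 listed promoter regions; with libraries scaled to the median of the listed regions these were 1.44 and 0.24. The list was chosen with earlier results of these data known, and 30 members had no listed region. The 250 bases before the RefSeq start of the 3 genes with a kB-type motif are shown because these 4 promoters were higher together; capitals mark the motif, on the gene's strand, 5′ to 3′.
Nfkbia: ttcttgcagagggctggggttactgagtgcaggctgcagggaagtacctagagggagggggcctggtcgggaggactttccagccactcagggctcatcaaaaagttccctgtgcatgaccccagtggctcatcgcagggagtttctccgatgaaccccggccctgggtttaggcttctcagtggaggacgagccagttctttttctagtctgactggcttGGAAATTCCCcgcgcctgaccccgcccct
Tnfaip3: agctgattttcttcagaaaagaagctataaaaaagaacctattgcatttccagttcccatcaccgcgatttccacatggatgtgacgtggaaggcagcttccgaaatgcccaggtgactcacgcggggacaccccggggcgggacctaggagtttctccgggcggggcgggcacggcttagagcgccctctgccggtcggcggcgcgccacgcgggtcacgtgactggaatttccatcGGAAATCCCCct
Tnip1: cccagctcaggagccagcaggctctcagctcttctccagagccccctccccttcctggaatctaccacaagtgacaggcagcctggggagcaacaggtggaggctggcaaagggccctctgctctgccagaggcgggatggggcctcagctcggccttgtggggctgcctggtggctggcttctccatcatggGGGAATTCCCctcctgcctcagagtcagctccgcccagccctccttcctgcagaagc

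The sequences are RefSeq's on GRCm38.p6, at chr12:55492648-55492897, chr10:19015411-19015660 and chr11:54962941-54963190, all on the minus strand; for Tnfaip3, the more upstream of 2 listed starts was used, and the window of the other start held no match. The motif searched was GGG, any 2 bases, TT, any 1 base, CC, on both strands. Its first base stood 29, 12 and 57 bases before the start in Nfkbia, Tnfaip3 and Tnip1. The Tnip1 match reads the same on both strands, and Nfkbie had no match in this window. Of 27025 genes with a RefSeq window 4.7% held the motif, against 25 of 411 matched genes with a higher promoter region (6.1%) and 15 of 462 with a lower one (3.2%). The windows lie before the start, whereas the midpoints of the higher regions of these genes lie after it.

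Nfkbia encodes IkB-alpha, which holds NF-kB in the cytoplasm. Its region (chr12:56590501-56592600, mm9, 3 kb class) had 484, 436 and 581 in Tg197 and 304, 278 and 272 in WT. All 3 Tg197 values exceeded all 3 WT values, and the WT values lay close together, the third included (limma log2 change 0.80, SE 0.20, adjusted p = 0.0725, and 0.00832 without WT library c). Tnfaip3 encodes A20, an enzyme that edits ubiquitin chains and shuts off NF-kB signalling. Its region (chr10:18732901-18734900) had 529.5, 334 and 447 in Tg197 and 278, 279.6 and 263 in WT, again with no overlap (log2 change 0.65, SE 0.22). Tnip1, an A20-binding partner, had 161, 156 and 270.1 in Tg197 and 123, 123 and 80.3 in WT at chr11:54775401-54776500; Tg197 library c was far above the other libraries and WT library c the lowest of the 6 (log2 change 0.83, SE 0.30). Nfkbie encodes a further IkB. It had 369, 221 and 371 in Tg197 and 243, 192 and 225 in WT, so Tg197 library b fell among the WT values (log2 change 0.51, SE 0.25). Tnfrsf1a, the main receptor for TNF, had a lower region in its gene body, where WT library c was 115 against 76.4 to 109 in Tg197 and 182 to 228 in the other WT libraries.

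**Figure D4:**
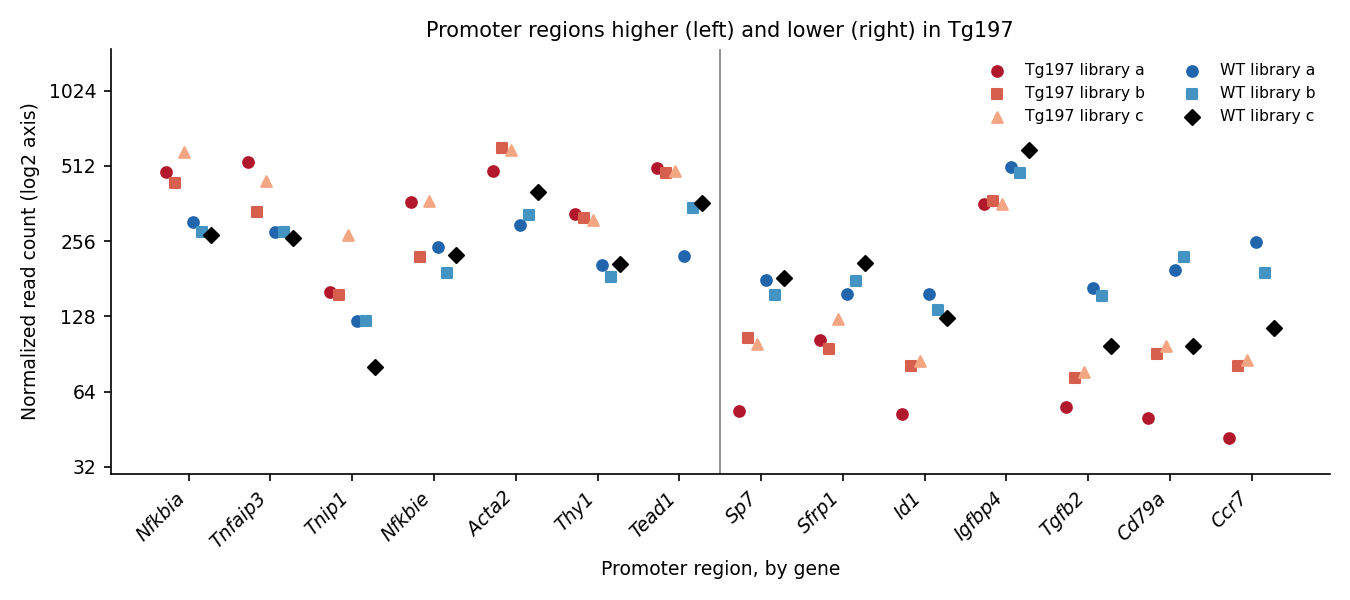
Normalized read count (y axis, log2 scale) in each of the 6 libraries (points) for 7 promoter regions higher in Tg197 (left of the line) and 7 lower (right). In Sp7, Sfrp1, Id1 and Igfbp4 all 3 WT values lie above Tg197 in the authors' scaling, and in Tgfb2, Cd79a and Ccr7 WT library c lies close to Tg197.

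Among 42 interferon response genes, Ddx60, Igtp and Mndal had higher promoter regions and Ifit3 a lower one, of 5 members with a listed promoter region (44.4% of all listed promoter regions were higher and 51.9% lower). Outside promoters Ifi35, Jak1 and Stat2 had 4 lower regions and no member a higher one. Over all genes 1650 of 1720 called regions there were lower. Ddx60, an interferon-induced RNA helicase, had 159.8, 163 and 183 in Tg197 and 126, 72.3 and 93.96 in WT, with no overlap (log2 change 0.82, SE 0.27). Igtp, an interferon-inducible GTPase, had 159, 149.7 and 149.7 in Tg197 and 121, 118 and 103 in WT, a small and even difference (log2 change 0.42, SE 0.22). Mndal had 45.95, 196 and 178 in Tg197 and 71.6, 86.4 and 68.9 in WT, where Tg197 library a was the lowest of all 6. Samd9l, an interferon-inducible gene outside the list, was higher in its promoter with 160.3, 179 and 186 in Tg197 and 84.8, 148 and 86.1 in WT. Ifit3, which binds viral RNA complexes, had 83.9, 113 and 118 in Tg197 and 196, 248 and 94.7 in WT, so WT library c was in the Tg197 range; with libraries scaled to the median of the listed regions its change turned from -0.68 to 0.04. Of 22 antigen presentation genes, H2-DMa alone was listed, lower with WT library c (0.10 on the place scale) at the Tg197 level.

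Of 34 chemokines, cytokines and receptors 2 were listed, both with a higher region in the gene body. Lif, a cytokine of the interleukin-6 family, had 237, 262 and 299 in Tg197 and 168, 179 and 209 in WT in a higher gene body region with no overlap (log2 change 0.52, SE 0.20). Csf1, the growth factor of macrophages, was higher in a gene body region (289, 225 and 303 in Tg197 and 205, 219.9 and 202 in WT) and lower in its promoter (128, 143 and 167 in Tg197 and 215, 184 and 203 in WT). In both of these the groups did not overlap, and a further gene body region was lower; the promoter change, at -0.46, turned to 0.25 with the scaling to listed regions.

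Genes of the actin cytoskeleton and adhesion gave the most higher promoters of any list. Of 46 members 11 had a listed promoter region; 9 of them were higher (among them Acta2, Actb, Actn4, Cd44, Rhoa, Rock1, Rock2 and Tln1), 1 was lower (Vcl) and 1 was not called, beside 44.4% higher over all listed promoter regions. Outside promoters Tpm1 and Vcl were higher, and 7 members were lower (Actn1, Actn4, Itga11, Myh10, Myh9, Pxn and Tpm4), beside 1650 of 1720 called regions lower there over all genes. The median log2 change of the 11 regions was 0.52. The groups did not overlap in 8 of them, beside 430 higher and 405 lower regions among all 1170 listed promoter regions. The median was 0.40 when libraries were scaled to regions near a TSS (within 1 kb) and 1.24 when scaled to the listed regions. Acta2 encodes smooth muscle actin, a mark of myofibroblasts. Its promoter had 489, 603 and 594 in Tg197 and 298, 325 and 402 in WT, with WT library c the highest WT value and still below every Tg197 value (log2 change 0.72, SE 0.22).

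Rhoa encodes the small GTPase that drives contraction. Its region had 363, 396 and 431 in Tg197 and 231, 308 and 272 in WT with no overlap. Its kinase Rock2 had 168, 175 and 220.2 in Tg197 and 121, 145 and 138 in WT, while for Rock1 WT library b, at 163, lay inside the Tg197 range of 149.7 to 176. Actn4 (alpha-actinin), Cd44 (hyaluronan receptor) and Timp3 (an inhibitor of matrix proteases) had log2 changes of 0.57, 0.45 and 0.37 without overlap. Actb and Tln1 overlapped between groups, at 0.33 and 0.40. Vcl, which links adhesions to actin, was lower at -2353.5 bp from its start, where WT library c had 105 against 47.6 to 97.4 in Tg197, and higher in its gene body with 160.3, 169 and 179.8 in Tg197 and 71.6, 148 and 99.7 in WT.

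Of the synovial fibroblast markers, 3 of 24 had a listed promoter region, 2 of them higher (Thy1 and Pdpn) and 1 lower (Htra4), beside 44.4% and 51.9% over all listed promoter regions. Thy1 is carried on the surface of fibroblasts below the lining. Its promoter had 328, 318 and 309.7 in Tg197 and 206, 184 and 207 in WT, with no overlap (log2 change 0.68, SE 0.18). Pdpn, the other higher marker, had 316, 178 and 264 in Tg197 and 161, 157 and 177 in WT, where Tg197 library b came within 1 count of the highest WT value. Prrx1, a mesenchymal transcription factor, was higher in its gene body with 295, 297 and 344 in Tg197 and 243, 267 and 232 in WT. Every library had a count of at least 157 in the regions of Thy1, Pdpn and Prrx1. In the lower Htra4 promoter, WT library c lay within the Tg197 values. Gene body regions of Has1, a hyaluronan synthase, of Clic5 and of Cd9 were lower, 5 regions in all, with WT library c the lowest WT value in each. Over all genes 875 of 918 called gene body regions were lower. WT library c was the lowest WT value in 2135 of all 2257 lower regions. Regions without a difference were not in the table, so markers that did not differ could not be looked up.

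In TGF-beta, Yap and growth factor signalling, 7 of 47 genes had a listed promoter region, with 5 higher, 1 lower and 1 not called (44.4% of all listed promoter regions were higher). Tead1 and Yap1, the DNA-binding protein and the coactivator through which the Hippo pathway acts, were both higher. Tead1 had 500.1, 480.1 and 486 in Tg197 and 224, 349 and 362 in WT, where WT library a was far below the other WT values (log2 change 0.68, SE 0.24). Yap1 had 237, 191 and 182 in Tg197 and 130.1, 148 and 157 in WT without overlap (log2 change 0.48, SE 0.21). Dusp6, a phosphatase that damps ERK signalling, had 706, 461 and 538 in Tg197 and 374, 416 and 351 in WT, and Igf1 had 182, 235 and 249 in Tg197 and 159, 156 and 155 in WT, with 3 nearly equal WT values. Pdgfc, a ligand of PDGF receptors, had a log2 change of 0.48. Gene body regions were higher in Fgf7, a growth factor for epithelium (294, 364 and 441 in Tg197 and 251, 278 and 230.2 in WT), and in Inhba, which encodes the activin subunit (263, 227 and 310.5 in Tg197 and 174, 182 and 157 in WT). Ltbp2, Ski and Smad3 had 8 lower regions outside promoters, where 1650 of 1720 called regions were lower over all genes. Tgfb2 was the lower promoter, with 55.6, 72.8 and 76.8 in Tg197 and 167, 154 and 97.5 in WT.

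Immediate early genes are switched on by cells within minutes of a stimulus. Of 34 members 9 had a listed promoter region, 7 of them higher (Egr1, Fosl2, Gadd45a, Ier2, Ier5, Jun and Klf4) and 2 lower (Atf3 and Zfp36), beside 44.4% and 51.9% of all listed promoter regions, with a median log2 change of 0.51, and Bhlhe40 was lower outside promoters. Jun, a subunit of AP-1, had 205, 293 and 278 in Tg197 and 174, 173 and 172 in WT, and its 3 WT values were within 2 counts of each other (log2 change 0.56, SE 0.21). Klf4 had 422, 329 and 329 in Tg197 and 228, 207 and 226 in WT (log2 change 0.70, SE 0.20), and Gadd45a, a gene of the DNA damage response, had 373, 249 and 334 in Tg197 and 216, 176 and 212 in WT. Fosl2 overlapped through WT library b. Atf3, a stress-induced repressor, had WT library c at 115 among the Tg197 values, and turned from -0.60 to 0.11 with scaling to the listed regions. Zfp36, which encodes an RNA-binding protein that destabilises TNF mRNA, had 152, 167 and 192 in Tg197 and 262, 286 and 225 in WT, lower without overlap; its log2 change of -0.59 became 0.12 with scaling to the listed regions.

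Of 36 genes of hypoxia, glycolysis and stress, 7 had a listed promoter region, with 5 higher and 2 lower, beside 44.4% and 51.9% over all listed promoter regions. Egln1, Ndrg1, Nfe2l2 and Pkm2 had 4 lower regions outside promoters, where 1650 of 1720 called regions were lower over all genes. Xbp1, a transcription factor of the unfolded protein response, had 364, 325 and 337 in Tg197 and 209, 247 and 224 in WT (log2 change 0.60, SE 0.19). Hsp90b1, a chaperone of the endoplasmic reticulum, had 320.1, 185 and 261 in Tg197 and 174, 149 and 173 in WT. Pgk1, a glycolytic enzyme, had 199, 347 and 249 in Tg197 and 162, 174 and 163 in WT in a region over its start. Nfe2l2, the master regulator of oxidative stress genes, had 337, 309 and 313 in Tg197 and 213, 169.7 and 335 in WT, so WT library c stood at the Tg197 level in a higher region, and Txnrd1, one of its targets, had a log2 change of 0.48. The 2 lower promoters, Hsp90aa1 and Ndrg1, had WT library c at 75.3 and 109 against 138 to 146 and 148 to 174 in the other WT libraries.

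The 15 largest higher promoter changes with groups apart included Nfkbia, Tnip1, Ddx60 and Samd9l, described above. Csnk1g3, a casein kinase, led with a log2 ratio of means of 0.85 and 185, 171 and 204 in Tg197 and 48.2, 152 and 109.7 in WT. Stt3a, the catalytic subunit of an oligosaccharyltransferase, had 246, 240.02 and 200.4 in Tg197 and 111, 159 and 139.9 in WT (log2 change 0.75, SE 0.22). Srp54b, a subunit of the signal recognition particle, was higher in 2 regions; near-identical copies of this gene exist in the mouse, so its reads may be shared. Ube2j1, a ubiquitin-conjugating enzyme of the endoplasmic reticulum, and Ufd1l, a cofactor for extracting misfolded proteins, had log2 changes of 0.73 and 0.69. Cul3, a ubiquitin ligase scaffold, Tollip, an adaptor of Toll-like receptor signalling, Coq10b and Pcmtd1 ranged from 0.72 to 0.85. In Pcmtd1, Cul3, Csnk1g3 and Samd9l at least 1 WT library stood well above the lowest, and the 3 Tg197 values were closer together than the WT values. Outside promoters the 3 largest were gene body regions of D4Bwg0951e, Rbpj, the DNA-binding effector of Notch (233, 259 and 287 in Tg197 and 126, 189 and 109 in WT), and Trps1, a GATA-type repressor (138, 185 and 159.99 in Tg197 and 87.7, 116 and 93.2 in WT).

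Of 52 genes of bone formation, BMP and Wnt signalling, 5 had a listed promoter region, with 1 higher and Id1, Runx2, Sfrp1 and Sp7 lower (51.9% of listed promoter regions were lower), a median log2 change of -0.75, or -0.04 with scaling to the listed regions. Tcf7, Tcf7l2 and Wnt5b were lower outside promoters, where 1650 of 1720 called regions were lower over all genes. In all 4 lower promoters WT library c was with the other WT values. Sp7 encodes osterix, a transcription factor required for osteoblasts. The region over its start (chr15:102196201-102197300) had 53.4, 105 and 99.0 in Tg197 and 178, 156 and 182 in WT, with WT library c the highest of the 6 (log2 change -1.06, SE 0.31, and adjusted p = 0.0101 by limma without WT library c). Sfrp1, a secreted Wnt inhibitor, had 103, 94.4 and 125 in Tg197 and 158, 178 and 209 in WT (log2 change -0.75, SE 0.23). Id1, a target of BMP signalling, had 51.8, 80.9 and 84.8 in Tg197 and 158, 135 and 126 in WT (log2 change -0.97, SE 0.31). With scaling to the listed regions these 3 went to -0.34, -0.04 and -0.26, so little of the Sfrp1 change was left. Runx2, the other osteoblast regulator, had 119.7, 135 and 129 in Tg197 and 111, 240.4 and 161 in WT, so the groups overlapped, and its change turned from -0.35 to 0.36 with scaling to listed regions.

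Homeobox and limb patterning genes had 6 listed promoter regions among 64 members, all lower (51.9% of all listed promoter regions were lower), with a median log2 change of -0.64, or 0.07 once libraries were scaled to the listed regions (Hoxa5, Hoxa13, Hoxd9 and Irx3 turned, Hoxc6 did not). Hoxa5, Hoxa13 and Hoxc6 had WT library c at 137, 120.5 and 73.2, near the highest Tg197 values of 132, 112 and 64.2. In Hoxd9 WT library c, at 79.6, lay inside the Tg197 range of 77.6 to 98.4. In Irx3 WT library b, at 132, was the value inside the Tg197 range.

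Matrix genes were listed mainly outside promoters. Of 39 members, 9 had lower regions there (among them Col5a1, Eln, Fbn1, Loxl2 and Sparc) and Col1a2 a higher one; over all genes 1650 of 1720 called regions outside promoters were lower. WT library c was midway or more toward the other WT values in 0 of the 16 lower regions, near the 6.4% of all lower regions outside promoters. Loxl2, a collagen crosslinking enzyme, had 5 lower regions. In promoters, Fbln5, which organises elastic fibres, was higher with 339, 256 and 189 in Tg197 and 143, 169.7 and 172 in WT, and Fbln1 was lower with 48.6, 86.3 and 63.4 in Tg197 and 164, 187 and 88.9 in WT. Among 32 proteases and inhibitors, Mmp23 and Serpinf1 had lower promoters in which all 3 WT values exceeded Tg197. Scaling to listed regions turned the Mmp23 region at -408.5 bp from its start from -0.57 to 0.14, and Serpinf1 to 0.22. A further Mmp23 promoter region, 2891.5 bp downstream, had a larger log2 change of -0.97. Its value under that scaling is not given here.

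Beside the lists, Igfbp4, Gdf15, Kdm6b, Ebf1 and Gas6 were named after their values were seen, for their even WT libraries. Igfbp4, a binding protein of insulin-like growth factors, had 359, 371 and 361 in Tg197 and 507, 478 and 591 in WT (log2 change -0.52, SE 0.20). Kdm6b, a demethylase of H3K27, had 90.3, 125 and 172 in Tg197 and 205, 218 and 204 in WT (log2 change -0.74, SE 0.27). Gdf15, a stress-induced cytokine, had 112, 151 and 181 in Tg197 and 253, 219.9 and 241 in WT. Ebf1, a transcription factor, and Gas6, a ligand of the Axl receptor, had log2 changes of -0.60 and -0.68. With scaling to listed regions Igfbp4, Kdm6b, Gdf15, Ebf1 and Gas6 went to 0.19, -0.03, 0.00, 0.11 and 0.03.

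The 15 largest lower promoter changes with groups apart all had low Tg197 values and WT library c between Tg197 and the other WT libraries. They were Cml3, Edar, Nol3, Ccr7, Fut2, BC048562, Rnu1b2, Plekhg4, 1110004E09Rik, Exoc2, S100a1, Myo1g, Ppp2r5c, B230206H07Rik and Jmjd5. The choice required groups apart, so it fixed WT library c above Tg197, and picking large drops favours low Tg197 values. WT library c was the lowest WT value in 2135 of all 2257 lower regions. Ccr7, a chemokine receptor of leukocytes, had 41.7, 80.9 and 85.5 in Tg197 and 254, 192 and 115 in WT. The ratio of Tg197 to WT libraries a and b was -1.68 on the log2 scale, and to WT library c -0.74. Edar, the receptor of ectodysplasin, had 41.7, 70.1 and 63.4 in Tg197 and 189, 182 and 112 in WT, with ratios of -1.67 and -0.94. Cml3 had 19.2, 59.3 and 45.1 in Tg197 and 146, 139.8 and 73.2 in WT, the lowest Tg197 value of the 15 being 19.2. In gene bodies the 3 largest were 1700112E06Rik, Prkce and Eefsec, with ratios of -2.08, -1.97 and -1.85 to WT libraries a and b and of -0.80, -0.94 and -1.18 to WT library c.

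The listed markers of other cell types were all lower, beside 51.9% of all listed promoter regions. Of 27 leukocyte markers, Cd79a, Cd79b and Fcer1g had lower promoters, with counts in Tg197 from 32.6 to 101 and in WT library c from 83.2 to 97.6. Of 18 muscle markers Ckm was lower. Of 23 markers of cartilage, bone and fat, Comp, Sox9 and Sp7 had lower promoters, and in all 3 WT library c was with WT. Sox9, the cartilage regulator, had 301, 191 and 258 in Tg197 and 348, 329.9 and 349 in WT (log2 change -0.48, SE 0.22, and 0.24 with scaling to listed regions). Comp, a cartilage matrix protein, had 90.8, 135 and 134 in Tg197 and 211, 214 and 179 in WT (log2 change -0.76, SE 0.24, and -0.05 with that scaling). No member of the endothelial list (16 genes) or of the nerve and epithelial list (16 genes) was listed. Whether fewer cells of a type or less mark per cell was measured cannot be told apart in bulk libraries.

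Some genes carried regions of both directions. Higher promoters were found in 514 genes and lower ones in 581; 33 genes had a higher promoter region and a lower region anywhere in the gene. Ccnd1, which encodes cyclin D1, was higher 1878.5 bp downstream of its start (267, 259 and 261 in Tg197 and 202, 173 and 199 in WT) and lower at -821.5 bp (75.9, 97.1 and 106 in Tg197 and 177, 195 and 97.5 in WT). In the downstream region all 3 WT values were below Tg197, and in the upstream region WT library c lay within the Tg197 values (log2 change -0.70, and 0.01 with scaling to the listed regions). Actn4 had a higher promoter and a lower gene body region in which WT library c, at 133, was between Tg197 (53.4 to 99.0) and the other WT values (215 and 217).

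At 3 and at 11 weeks, in separate libraries, part of the 8 week regions was listed again. Of the 2847 called regions 387 (13.6%) overlapped by at least 1 bp a region called at 3 weeks, and these touched 2.85% of the 13494 called there; 199 (7.0%) overlapped one called at 11 weeks, touching 3.20% of 6382. Of the 77 higher regions called at 3 weeks 57 were higher there too (9.71% of the listed regions were higher at 3 weeks), and of 61 called at 11 weeks 47 were (29.8%). Those background shares cover all feature classes, whereas 88.1% of the higher regions at 8 weeks were promoters, so they are not a matched background. Among promoter regions called at 3 weeks, 53 of 69 higher at 8 weeks were higher there, beside 16 of 89 lower at 8 weeks. At 11 weeks these were 43 of 56 and 15 of 41. Of the lower regions, 288 of 310 were lower at 3 weeks (89.5% of the listed regions) and 99 of 138 at 11 weeks (67.0%), shares near those backgrounds.

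Of the 520 higher and 607 lower promoter regions, 17 and 4 had the same direction at all 3 ages. How many were called at all 3 ages in any direction is not given here. These 17 higher ones included Nfkbia, Nfkbie, Tnfaip3, Tnip1, Dusp6, Yap1, Ccnd1, Fas, Hivep2, Lrig1, Sbno2, Baiap2, Dtx2, Ninl, Osbpl5 and Zdhhc12. All 4 inhibitors of NF-kB in the list were among them. Nfkbie had 622, 749 and 386 against 372, 381 and 412 at 3 weeks (Tg197 against WT), so its groups overlapped there, as at 8 weeks. At 11 weeks, with 660, 532 and 738 against 376, 315 and 357, they did not. Groups also overlapped in Dusp6 and Dtx2 at 11 weeks, Yap1 and Baiap2 at 3 weeks, and Ninl and Dtx2 at 8 weeks. Nfkbia had 1139.8, 1222 and 809 against 598, 729.8 and 518 at 3 weeks and 581, 703 and 833 against 375, 379 and 367 at 11 weeks (Tg197 against WT, each table scaled on its own), with the groups apart at every age. Tnfaip3 had 629.5, 733 and 441 against 281, 374 and 278 at 3 weeks and 619, 807 and 832 against 470.2, 460.5 and 433 at 11 weeks, and Tnip1 522, 518 and 634 against 321, 324 and 398 and 674, 498 and 583 against 349, 270.4 and 267. Fas, a death receptor, had 215, 229 and 293 in Tg197 and 162, 176 and 186 in WT at 8 weeks, and a log2 ratio of 0.42 at 3 weeks, where Tg197 library c lay below the WT values, and of 0.54 at 11 weeks. Hivep2, a zinc finger protein that binds kB sites, had 312, 268 and 278 in Tg197 and 156, 201 and 187 in WT, and Lrig1, a negative regulator of growth factor receptors, 396, 317 and 259 in Tg197 and 225, 198 and 199 in WT.

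The 4 lower promoters at all 3 ages were those of Sp7, Zfp385a, Rn4.5s and 4933402P03Rik. Sp7 had 153, 117 and 149 against 228, 192 and 214 at 3 weeks and 324, 214 and 214 against 391, 413 and 381 at 11 weeks, so its Tg197 and WT values did not overlap at any age. Zfp385a had 77.1, 82.3 and 105 against 124, 136 and 136 and 106, 91.2 and 100.5 against 153, 127 and 146. At 8 weeks it had 67.3, 102 and 101 in Tg197 and 213, 190.1 and 104 in WT. The 3 WT values lay above Tg197 at every age, though at 8 weeks WT library c did so only narrowly. Sfrp1 was called at 3 weeks as well, with 137, 74.2 and 89.6 against 218, 187 and 179.9. Of 5 lower gene body regions of Ski, a corepressor of TGF-beta signalling, 1 overlapped a lower region at both 3 and 11 weeks.

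**Figure D5:**
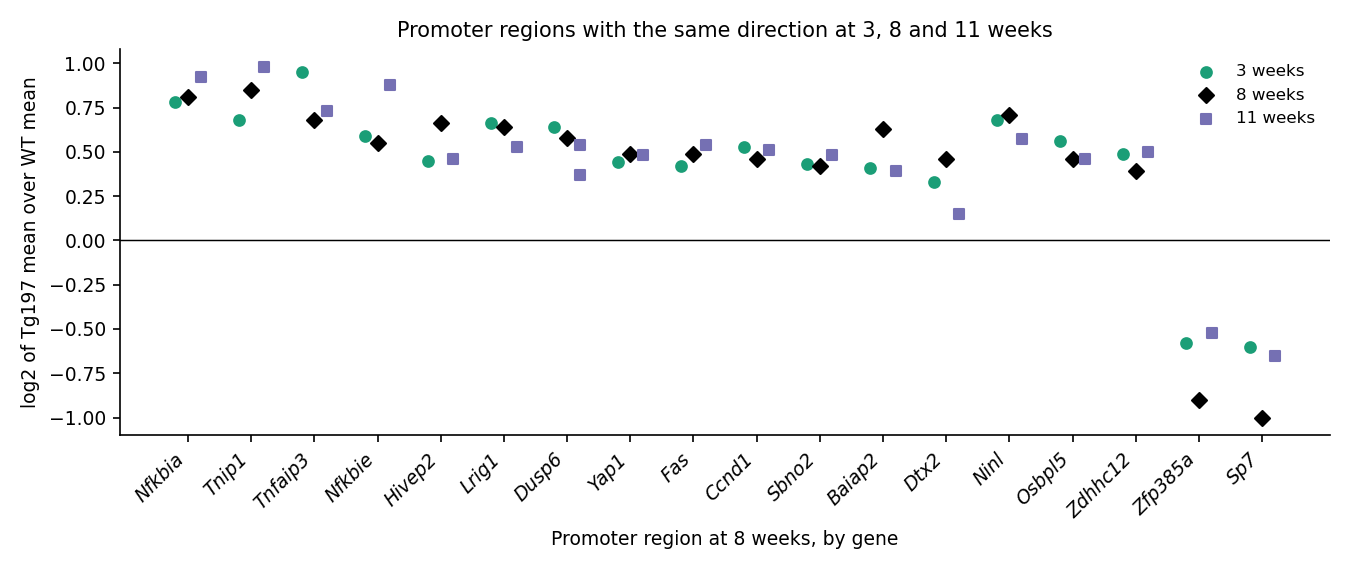
log2 of the Tg197 mean over the WT mean (y axis) at 3, 8 and 11 weeks (points) for 18 promoter regions with the same direction at all 3 ages; where 2 regions of another age overlap, both are drawn. The 16 higher promoters drawn lie above 0 at each age, and Zfp385a and Sp7 lie between -0.5 and -1.0.

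The table of TNF-treated against untreated WT cells uses the same WT libraries, so its values are set beside these without a comparison. With TNF, Nfkbia had 742, 903 and 925 against 467, 443 and 450.2 and Tnfaip3 772, 1047 and 906 against 518, 526 and 443 (TNF-treated against untreated). Sp7 had 219, 119 and 196 against 345, 303 and 295. Timp3 had 161, 146 and 149 against 213, 186 and 217, beside 197, 217 and 216 in Tg197 and 161, 148 and 179 in WT in the Tg197 table.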

How the data were processed

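H3K4me3 ChIP-seq regions on mm9 were taken from the deposited table of Tg197 against WT at 8 weeks. Tools named in the submitters' processing notes are TopHat, TopHat2, Cufflinks, Cuffdiff and BWA, with no versions, and the build is mm9. Which program called the regions is not stated in the labels or headers used here. The table lists only regions whose best window had p of at most 0.0001. Per the file headers, the authors gave normalized counts of 3 libraries per group, group averages (the signal), an enrichment ratio, log2 fold changes, and a p-value with its adjusted p-value. The 2 other age tables and the TNF table were read in the same way. The headers name the groups treatment and control. The control was taken to be WT because all 162 control values in 54 regions shared by both 8 week tables held equal reads, and WT is the only group the labels tie to both.

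Every value was a whole multiple of a step per library within 0.02 normalized reads (100.0% of values), which gave the reads behind it. Since the deposited values are normalized counts, limma 3.58.1 (R 4.3.3, trend in the variance, Benjamini-Hochberg adjustment over the 2923 regions) was run on log2(value + 0.5), a scale that understates changes of low values, and limma-voom on the recovered reads. The listed regions were selected on the same libraries, so its p-values are not independent evidence. The limma fit on log2 values was also run on simulated data. Noise there was drawn separately for each value, with no shift shared by a library. That run therefore cannot show how the fit handles WT library c or the scaling. Alternatives were 2 other scalings, a pseudocount of 5, a mean of at least 50, an adjusted p of 0.001, other overlaps and leaving out each library.

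Named promoters were the 15 largest changes each way with groups apart and a mean of at least 50, with 3 each way in other classes, plus members of the gene lists, except a few that are not reported here; the members and lists were chosen with earlier results of these data known. Distances to the TSS are from the deposited annotation. Summaries used Python 3.11.15 with pandas 2.3.3 and scipy 1.17.1.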

Additional observations from a re-analysis of the deposited data

Results flagged for a closer look

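Rhoa and Myo1g had groups apart in opposite directions at 8 and at 11 weeks. In Rhoa, whose 8 week promoter region was higher with 363, 396 and 431 in Tg197 and 231, 308 and 272 in WT, an overlapping region at 11 weeks had 136, 153 and 159.9 against 181, 259 and 199.97 (Tg197 against WT), a log2 ratio of -0.51. The Myo1g promoter was lower at 8 weeks with 43.8, 45.9 and 57.8 in Tg197 and 152, 137 and 83.2 in WT, and at 11 weeks it had 118, 106 and 109 against 69.5, 70.6 and 80.9, a log2 ratio of 0.59. Each age was normalized on its own, so the difference between ages was not tested. With 3 libraries per group no single library could be judged an outlier.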

How the results depend on the processing

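Limma's counts depended on WT library c and on the scaling. The 0 regions that rose and 0 that fell with all 6 libraries became 338 and 76 once libraries were scaled to the listed regions, or 12 and 1717 once scaled to those near a TSS; leaving out 1 library gave 0 to 328 that rose and 0 to 2235 that fell, above 0 only without WT library c. Between those scalings the median log2 change over all listed regions went from -0.15 to -0.99, against -0.86 as deposited. Regions past the authors' adjusted p numbered 310 higher and 1244 lower at 0.001. Counting only the 250 bp class as promoter gave 62.9% higher there and 18.9% elsewhere. Groups lay apart in 494 listed regions upward and 1353 downward, which became 588 and 638 with scaling to listed regions; leaving out 1 library gave 500 to 545 upward and 1354 to 2282 downward, the 2282 without WT library c. The place of WT library c in higher regions moved from 0.88 to 0.61 and 0.67 under the 2 scalings, and in lower regions from 0.19 to 0.25 and 0.28. Requiring an overlap of 50% of each region gave 34 higher and 152 lower regions with the same direction at 3 weeks, and 27 and 50 at 11 weeks. For these changes the cause was not tested, beyond the smaller sets that stricter thresholds and overlaps leave.

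No paired analysis was possible because the table does not tie its 3 values per group to replicate numbers.

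All 129 regions in this count, which leaves out some regions of the genes named here, kept their direction when any library was left out. They also did so with limma-voom, a pseudocount of 5 or scaling near the TSS. Scaling to listed regions turned 17 of them, all lower as deposited, to values above 0: Runx2 0.36, Irx3 0.31, Csf1 0.25, Sox9 0.24, Serpinf1 0.22, Igfbp4 0.19, Mmp23 0.14, Zfp36 0.12, Atf3 0.11, Ebf1 0.11, Hoxd9 0.10, Hoxa13 0.04, Ifit3 0.04, Gas6 0.03, Hoxa5 0.01, Ccnd1 upstream 0.01 and Gdf15 0.00. Median recovered reads per lower region were 112, 64 and 108 in the Tg197 libraries and 126, 106 and 133 in WT, with 20 the lowest, so counting error is largest in Tg197 library b. Regions without a difference were not analysed here, so no scaling could be set on unchanged regions.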

Other observations

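Multi-copy testis and oocyte gene families (Speer and Tdpoz genes) supplied 25 regions, all 25 lower in Tg197 and none with the groups apart. Speer7-ps1 had the most called regions of any gene, 9. Its promoter region had 1383, 1721 and 955 in Tg197 and 4098, 5555 and 789.7 in WT, so WT libraries a and b were high and WT library c was below every Tg197 value. Over the 25 regions the median log2 ratio of Tg197 was -1.77 to WT libraries a and b and 0.65 to WT library c, opposite in sign. Reads from near-identical copies may be shared between these genes. Rn4.5s, a small RNA gene with repeated copies, had 8 lower regions, 6 of them with the groups apart (1344 of all 2257 lower regions).

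The mitochondrial genome carried 4 regions called higher. Their summed normalized counts were 81899 and 70188 in Tg197 libraries a and b but 19581 in Tg197 library c, below the 24927, 27402 and 33836 of WT. They made up 18.0, 13.3 and 4.5% of the normalized counts in listed regions in Tg197 and 3.3, 3.8 and 7.7% in WT. These 4 are among the 25 intergenic regions called higher.

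Ribosomal protein genes had 7 higher and 11 lower promoter regions. Solute carrier genes had 7 higher and 9 lower promoter regions, and zinc finger protein genes 8 and 11. These lie near the shares over all listed promoter regions, 44.4% higher and 51.9% lower. Among the remaining gene lists, promoters were higher in 1 and lower in 4 of the cell cycle genes, 2 and 1 of the lipid and cholesterol genes, 1 and 0 of the writers and erasers of H3K4 methylation, and 1 and 1 of the axon guidance genes. The authors' deposited table also gives an enrichment ratio over input. Its median was 6.26 in Tg197 and 2.98 in WT over the higher regions, and 1.83 and 2.39 over the lower regions. Not every lower region had a lower ratio in Tg197. In the lower promoter region of Sox9 it was 4.87 in Tg197 and 4.26 in WT, and in that of Runx2 6.69 and 6.03. In Sp7 it was 1.48 and 2.28. How many lower regions went each way is not given here.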
